A study of Mus musculus with 12 samples.

Results

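The Sohlh1 knockout testis was compared with the wild-type testis on 8 of the 12 arrays of the series, the 4 labelled wild type (3, 4, 5 and 6) and the 4 labelled Sohlh1 knockout (2, 3, 4 and 5), with groups taken as labelled. Mice of both groups had a mixed background of C57BL/6, 129S5 and SvEvBrd and were at postnatal day 7. Animals of the first group were labelled wild-type and those of the second were homozygous for the loss of Sohlh1 (Sohlh1-/-). The labels do not state the design of the deleted allele, and the loss was not restricted to a cell type by any label. RNA of whole testis from 3 animals, 1 testis each, was pooled for each array, so each group drew on 12 animals, and differences among its arrays are differences among pools. The remaining 4 arrays, labelled Sohlh2 knockout, entered the fit only to estimate that spread. They also counted in choosing which signals were bright enough to test.

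Sohlh1 and its relative Sohlh2 belong to the basic helix-loop-helix family of transcription factors and are expressed in germ cells, where they act in spermatogonia that leave the undifferentiated pool and in oocytes of early follicles. At this age the mouse testis holds spermatogonia among Sertoli cells inside the tubules, with Leydig cells, peritubular myoid cells, vessels and macrophages outside them, and meiosis has barely begun. Undifferentiated spermatogonia depend on the growth factor GDNF and its receptor Gfra1, whereas differentiating spermatogonia carry the receptor Kit and respond to retinoic acid. In whole testis, fewer cells of a type and less RNA per cell cannot be told apart.

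The array carried 45037 probe sets other than controls, of which 34945 had exactly 1 gene symbol and 24906 of those were bright enough to be tested. Each of the 13702 genes they stand for is described by its brightest probe set. Signals are MAS5 intensities on a linear scale, log2 fold changes are knockout minus wild type on log2(signal + 14.2), and a gene was called, or said to rise or fall, at an adjusted p under 0.05 in limma's fit. Values per array are given in the order wild type 3, 4, 5 and 6, and Sohlh1 knockout 2, 3, 4 and 5.

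Basic helix-loop-helix factors bind short palindromic sites called E-boxes (CANNTG, N being any base). The 250 bases before the annotated RefSeq start (GRCm38.p6) are shown for Sohlh1 itself and for 3 genes whose signals fell far in the knockout, so that the sites can be read; E-boxes are in capitals, each window is printed 5′ to 3′ on the strand of the gene, and for Dmrtb1 and Kit 1 of their 2 annotated starts was taken. Sohlh1 has the window chr2:25847249-25847498 on the minus strand, Lhx8 chr3:154330561-154330810 on the minus strand, Dmrtb1 chr4:107684231-107684480 on the minus strand, and Kit chr5:75574737-75574986 on the plus strand.
Sohlh1: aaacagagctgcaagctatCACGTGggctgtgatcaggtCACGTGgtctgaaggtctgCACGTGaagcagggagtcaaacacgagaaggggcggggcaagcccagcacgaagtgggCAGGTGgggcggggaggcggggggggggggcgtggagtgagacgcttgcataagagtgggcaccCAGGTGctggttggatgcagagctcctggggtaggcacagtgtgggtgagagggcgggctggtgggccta
Lhx8: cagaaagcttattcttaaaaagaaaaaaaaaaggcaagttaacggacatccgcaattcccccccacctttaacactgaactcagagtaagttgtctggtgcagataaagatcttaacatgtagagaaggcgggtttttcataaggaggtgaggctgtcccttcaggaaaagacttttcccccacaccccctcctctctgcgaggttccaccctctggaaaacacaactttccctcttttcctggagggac
Dmrtb1: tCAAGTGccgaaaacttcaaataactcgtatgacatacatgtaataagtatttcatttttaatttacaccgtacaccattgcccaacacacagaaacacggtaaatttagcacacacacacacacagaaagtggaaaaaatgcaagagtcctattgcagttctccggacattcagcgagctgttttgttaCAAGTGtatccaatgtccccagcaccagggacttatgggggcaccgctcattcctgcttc
Kit: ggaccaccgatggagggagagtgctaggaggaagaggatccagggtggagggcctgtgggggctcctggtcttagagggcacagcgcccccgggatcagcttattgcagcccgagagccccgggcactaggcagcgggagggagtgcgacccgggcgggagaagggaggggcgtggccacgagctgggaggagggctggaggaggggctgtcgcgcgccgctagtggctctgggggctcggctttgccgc
The Sohlh1 window held 5 E-boxes, 3 of them CACGTG, the Dmrtb1 window held 2, and those of Lhx8 and Kit held none. Over 14085 windows of all tested genes, 58.6% held CANNTG, 8.19% CACGTG and 12.3% CAGCTG. The last 2 are forms of the first and read the same on both strands, whereas other forms of CANNTG can differ in their middle bases. Among windows of genes that fell the shares were 60.3%, 11.1% and 10.3%, and among those of genes that rose 64.1%, 11.8% and 11.8%. Without the array labelled Sohlh1 knockout 5 they were 60.9%, 11.8% and 8.7% for falls and 58.9%, 10.7% and 14.3% for rises. A match only describes these letters.

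The targeted gene was read first. Sohlh1 read 1126, 1138, 1200.1 and 1233 in wild type and 104, 61.0, 50.1 and 595 in the knockout. The arrays labelled Sohlh1 knockout 2, 3 and 4 were low, and the array labelled Sohlh1 knockout 5 lay between them and wild type. Sohlh2, which is not the targeted gene, read 885, 1104, 1012 and 1200.3 in wild type and 1556, 1783, 1605 and 94.4 in the knockout, so it was low only on the array labelled Sohlh1 knockout 5 among the 8. The labels do not say whether either probe set lies in a deleted part. Both targeted-gene signals went against the label of the array labelled Sohlh1 knockout 5, so the main counts below are given with and without it, and a named gene that lost its call without it is identified. Among the 4 arrays labelled Sohlh2 knockout, 1, 3-1, 4 and 5, Sohlh1 read 126, 465, 494 and 563 and Sohlh2 1847, 157, 93.6 and 73.2. The array labelled Sohlh2 knockout 1 thus also went against its label, with Sohlh1 and Sohlh2 signals near those of the arrays labelled Sohlh1 knockout 2, 3 and 4, while those of the array labelled Sohlh1 knockout 5 were near the other arrays labelled Sohlh2 knockout. The main counts, and those of several lists, are therefore also given without both. On all arrays the log2 fold change of Sohlh1 was -3.12 (SE 0.58, adjusted p = 0.0118) and that of Sohlh2 -0.33 (SE 0.92, adjusted p = 0.904). Without that array they were -3.84 and 0.65; since the array was singled out by these genes, those values are descriptions and not tests.

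**Figure D1:**
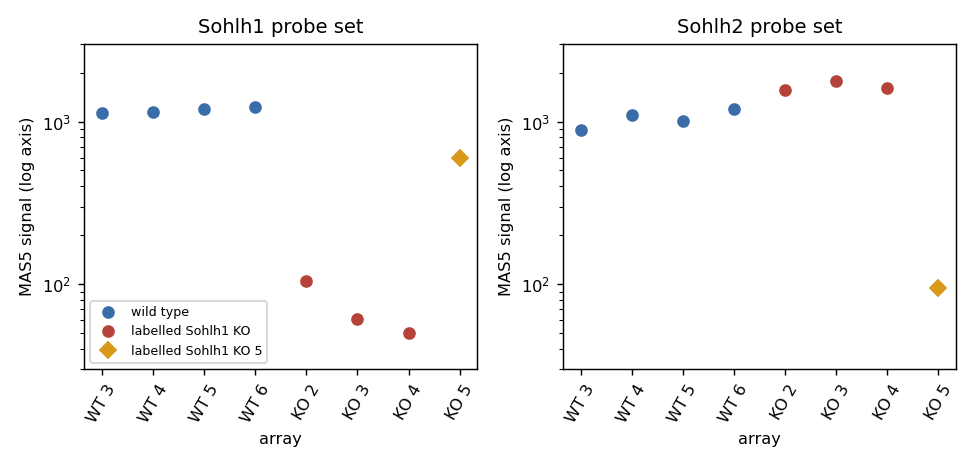
MAS5 signal (log axis) of the Sohlh1 probe set (left) and the Sohlh2 probe set (right) on each of the 8 arrays, 1 point an array. Wild-type arrays are blue, the arrays labelled Sohlh1 knockout 2, 3 and 4 red, and the array labelled Sohlh1 knockout 5 a gold diamond, at 595 for Sohlh1 and 94.4 for Sohlh2.

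The tissue was testis by its markers on all 8 arrays. Across both groups the germ cell genes Ddx4 and Dazl read 3752 to 4970.1 and 10191 to 13287, the Sertoli cell genes Amh and Sox9 464 to 941 and 1275 to 2382, and the Leydig cell enzyme Cyp11a1 1705 to 2426. Array medians ran from 78.0 to 90.8. The array labelled Sohlh1 knockout 2 stood apart in its controls, with a 3′ to 5′ ratio of the actin control of 2.10 against 1.32 to 1.43 in wild type and 1.41 to 1.45 on the other knockout arrays, and an 18S control signal of 17901 against 191 to 5836 on the other 7. The array labelled Sohlh2 knockout 1, used in the fit only for the spread, had the highest ratio, 3.56.

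In all, 554 of 24906 probe sets were called, 185 higher and 369 lower in the knockout (2.22%). By gene, 397 of 13702 were called (2.90%), 145 higher (1.06%) and 252 lower (1.84%), and a change of 2-fold or more on the log scale used was reached by 27 of the first and 65 of the second. The called genes that fell were brighter in wild type, with a median mean signal of 1119, than those that rose (418); over all tested genes the median was 580.0. Of the 397, 14 were above the filter value on no array of at least 1 of the 2 groups (186 of all tested genes), so that their inclusion may have required a difference. Groups did not overlap for 395 of the 397, against 13.5% of all tested genes. The median log2 fold change of all tested genes was 0.03.

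Without the array labelled Sohlh1 knockout 5, 293 probe sets (1.18%) and 215 genes (1.57%) were called, 65 genes higher (0.474%) and 150 lower (1.09%), and 206 of those 215 were among the 397. All 397 kept their sign in that fit, but for the 395 whose groups did not overlap no other outcome was possible. The number of genes called fell after leaving out any of the 8 arrays. It was 353 without wild type 3, 191 without wild type 4, 176 without wild type 5, 162 without wild type 6, and 231, 242 and 201 without the arrays labelled Sohlh1 knockout 2, 3 and 4. It was 703 without the array labelled Sohlh2 knockout 1, 500 (3.65%) without both that array and the array labelled Sohlh1 knockout 5 (790 probe sets, 3.17%, with 181 genes higher, 1.32%, and 319 lower, 2.33%), and 94 without the arrays labelled Sohlh1 knockout 2 and 5. With both omitted 91 of the 94 were among the 397.

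**Figure D2:**
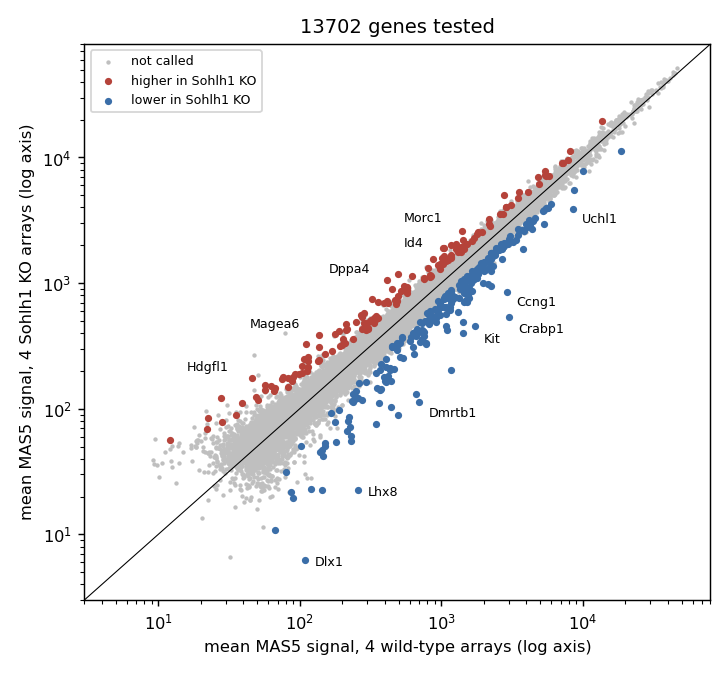
Mean MAS5 signal of each tested gene over the 4 wild-type arrays (horizontal, log axis) and over the 4 arrays labelled Sohlh1 knockout (vertical, log axis), 1 point a gene. The 145 genes called higher are red, the 252 called lower blue, the rest grey, and the line marks equal signals; of the labelled genes Lhx8 and Dlx1 sit farthest below it at low signal, and Crabp1 and Ccng1 at high signal.

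Genes of differentiating spermatogonia were lower. Of 16 tested members of that list 8 fell, and there was no rise. The median log2 fold change was -0.86 beside 0.03 over all genes, and without the array labelled Sohlh1 knockout 5 the same count fell with a median of -0.87. Besides Sohlh1 itself, they were Crabp1, Kit, Uchl1, Dmrtb1, Lmo1, Esx1 and Dnmt3b. This list was chosen with earlier results of these arrays known, so its direction is a description.

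Crabp1, which binds retinoic acid in the cytoplasm, read 2573, 2853, 3304 and 3315 in wild type and 389, 648, 567 and 544 in the knockout. All 4 knockout arrays lay far below all wild-type arrays, the array labelled Sohlh1 knockout 5 in the midst of the others, and the log2 fold change was -2.47 (SE 0.14, adjusted p = 1.03e-06). Kit, the receptor tyrosine kinase for Kit ligand, read 1591, 1598, 1953 and 1815 and 447, 542, 329.5 and 494. Its groups were as clearly separate, with -1.92 (SE 0.16, adjusted p = 1.94e-05), and a second Kit probe set had the same sign without passing. Uchl1, a ubiquitin hydrolase abundant in spermatogonia, read 7537, 8596, 9273 and 8922 and 3677, 4159, 4288 and 3448, so the knockout kept 45.4% of the wild-type mean. Here the array labelled Sohlh1 knockout 5 was the lowest of all (log2 fold change -1.14, SE 0.10, adjusted p = 4.07e-05). Without that array the 3 log2 fold changes were -2.48, -1.97 and -1.08, with adjusted p of 1.66e-05, 0.000128 and 0.000283.

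The same list held 4 called regulators of transcription and DNA methylation besides Sohlh1. Dmrtb1, a DM-domain factor that acts at the turn from mitosis to meiosis, read 659, 671, 737 and 738 in wild type and 125, 82.6, 137 and 106 in the knockout. Its wild-type arrays agreed closely, and every knockout array was far below them (-2.52, SE 0.24, adjusted p = 7.11e-05). Lmo1, a LIM-only cofactor, read 381, 454, 360.1 and 583 and 65.7, 80.1, 145 and 123. Esx1, an X-linked homeobox gene, read 403, 499, 798 and 939 and 127, 138, 119.9 and 143; its wild-type arrays spread widely while its knockout arrays lay close together, and the groups did not overlap. Their log2 fold changes were -2.0 (adjusted p = 0.000329) and -2.13 (adjusted p = 0.000486). Dnmt3b, which sets new DNA methylation, read 1985, 2231, 2309 and 2027 and 1063, 771, 832 and 1265. The array labelled Sohlh1 knockout 5 was the knockout array nearest to wild type (-1.13, adjusted p = 0.00137). Without it these 4 genes had -2.50, -2.09, -2.16 and -1.26, all still called.

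Stra8, which retinoic acid induces before meiosis, did not pass. It read 3693, 4184, 5540.2 and 4991 in wild type and 3458, 3579.8, 2792 and 3471 in the knockout. The groups did not overlap, but the wild-type arrays spread widely (-0.46, SE 0.14, adjusted p = 0.11, and 0.174 without the array labelled Sohlh1 knockout 5).

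**Figure D3:**
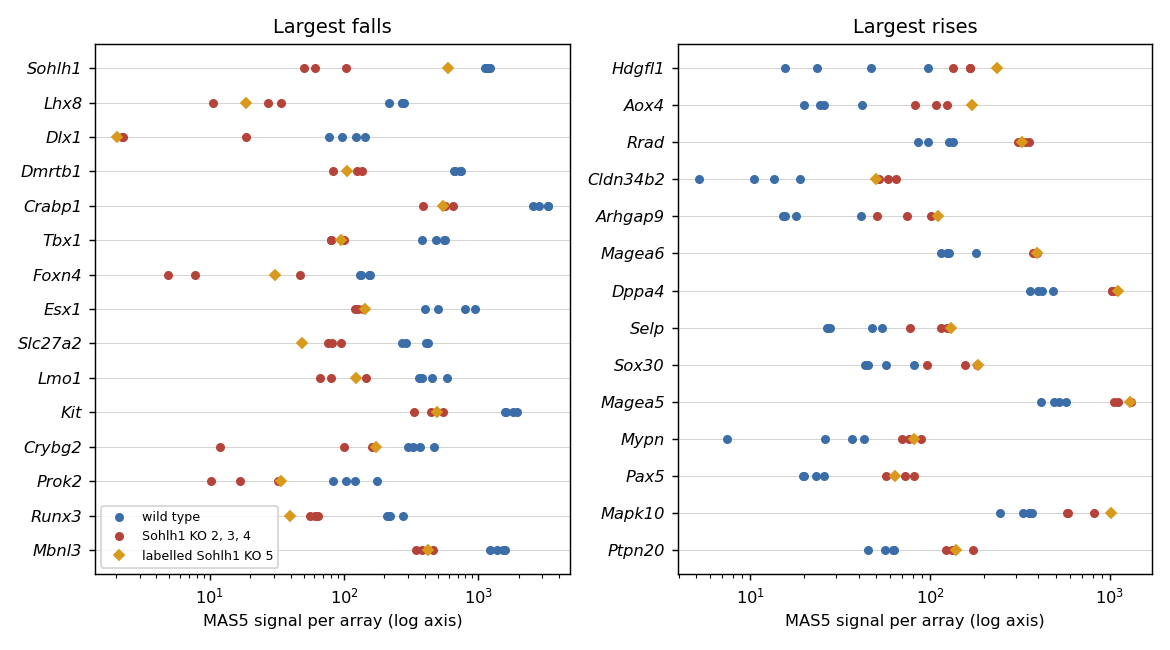
MAS5 signal (log axis) on each of the 8 arrays for the 15 genes of largest fall (left) and 14 of the 15 of largest rise (right), by log2 fold change among called genes with groups apart. Wild type is blue, the arrays labelled Sohlh1 knockout 2, 3 and 4 red, and the array labelled Sohlh1 knockout 5 a gold diamond, which lies toward wild type for Sohlh1 and among or beyond the other knockout arrays for most other genes.

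The 15 largest falls among called genes with groups apart were, in alphabetical order, Crabp1, Crybg2, Dlx1, Dmrtb1, Esx1, Foxn4, Kit, Lhx8, Lmo1, Mbnl3, Prok2, Runx3, Slc27a2, Sohlh1 and Tbx1. Lhx8, a LIM homeobox factor needed in oocytes, read 217, 272, 279.5 and 272 in wild type and 10.5, 33.8, 26.9 and 18.6 in the knockout. The knockout signals lay below the filter value of 48.6 on every array, so the size of the change depends on the offset (-2.94, SE 0.38, adjusted p = 0.000775). Dlx1, a homeobox factor, read 77.4, 97.2, 143 and 122 and 18.4, 2.21, 2.26 and 2.02, the highest knockout value being that of the array with the high 3′ to 5′ ratio, whose part in this was not tested. Its log2 fold change was -2.64 (adjusted p = 0.00356). Tbx1, a T-box factor, read 382, 488, 561 and 556 and 101, 80.1, 80.3 and 95.2, with knockout arrays close together (-2.30, SE 0.17, adjusted p = 6.49e-06). Foxn4, a forkhead factor, read 132, 154, 134 and 157 and 7.69, 4.87, 46.7 and 30.6, and the knockout arrays, all dim, scattered (-2.28, adjusted p = 0.0103). These 4 genes, with the array labelled Sohlh1 knockout 5 left out, had -2.90, -2.56, -2.33 and -2.43, and all remained called. Lhx8, Dlx1 and Foxn4 were above the filter value on no knockout array and entered the test through the wild-type arrays, so their values are descriptions.

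Runx3, a Runt-domain factor, read 218, 212, 277 and 209 in wild type and 55.7, 64.3, 61.1 and 39.7 in the knockout (-1.81, adjusted p = 0.0084, and 0.0353 without the array labelled Sohlh1 knockout 5). The groups were well apart, but another Runx3 probe set had the opposite sign. Of 75 tested homeobox, T-box, forkhead and LIM-only genes, 7 fell and 4 rose, with a median of -0.03, or 0.02 after median centring or quantile normalization (6 fell and 4 rose without the array labelled Sohlh1 knockout 5, where Foxm1 lost its call). On all arrays 14.7% were called, against 2.90% of all tested genes. Of the 75, 8 were above the filter value on no array of at least 1 of the 2 groups. Among them were 5 of the 11 called, Lhx8, Dlx1, Foxn4, Pax5 and Dlx3, so these counts are a description. The rises were 4, 3, 4 and 4 without wild type 3, 4, 5 or 6 and 3, 3, 2 and 4 without the arrays labelled Sohlh1 knockout 2, 3, 4 or 5. Those that rose were Six4, which read 162, 133, 101 and 155 against 247, 371, 329 and 299.8, Pax5, Dlx3 and Pou5f1. Pax5 and Dlx3 were dim, with 23.1, 25.7, 19.9 and 19.7 against 80.9, 57.1, 72.8 and 64.1 and 19.99, 37.3, 43.4 and 41.3 against 99.8, 93.2, 86.2 and 79.6, and their groups stood apart at log2 fold changes of 1.19 and 1.09. For Six4, 1.10 (adjusted p = 0.0061), all 3 other probe sets had the same sign and 2 were called; the other Dlx3 probe set had the opposite sign. None of 21 tested genes of the Hox clusters was called by limma (median 0.08, with 5 at an unadjusted p under 0.05). Over all tested genes 2.90% were called, so a count of 0 says little for a list this short.

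Among basic helix-loop-helix and Id genes, 4 of 40 fell and 1 rose, with and without the array labelled Sohlh1 knockout 5. On all arrays 12.5% were called, against 2.90% of all tested genes. Besides Sohlh1 the falls were Neurog3, Ascl2 and Figla. Neurog3, a factor of progenitor spermatogonia, read 303, 352, 375 and 372 in wild type and 142, 111, 142 and 195 in the knockout (-1.19, adjusted p = 0.00146). Ascl2 read 378, 405, 481 and 512 and 138, 139.7, 235 and 154 (-1.36, adjusted p = 0.00101), and Figla, which in oocytes drives the genes of the egg coat, 218, 257, 342 and 286 and 121, 73.3, 155 and 118 (-1.17, adjusted p = 0.0142). In each the groups were apart, and the array labelled Sohlh1 knockout 5 was the nearest to wild type for Neurog3 only. The rise was Id4, an inhibitor of such factors that marks spermatogonial stem cells, from 1042, 880.2, 861 and 724 to 1498, 1608, 1516 and 1568 (0.82, adjusted p = 0.00356).

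Oocyte genes were partly detectable in the testis. Of 19 with a probe set 12 were bright enough to test, of which Lhx8, Figla and Dppa3 fell and Pou5f1 rose, with a median of -0.45. That was 33.3% called, against 2.90% of all tested genes. The counts were 2 falls and 1 rise without the array labelled Sohlh1 knockout 5. Leaving out the array labelled Sohlh2 knockout 1 as well gave 4 falls and 1 rise. Without wild type 3, 4, 5 or 6 the falls were 3, 2, 1 and 1, and without the arrays labelled Sohlh1 knockout 2, 3, 4 or 5 they were 3, 3, 2 and 2. Dppa3, a maternal factor also called Stella, read 112, 154, 146 and 188 in wild type and 77.6, 19.7, 59.3 and 55.5 in the knockout (-1.36, adjusted p = 0.0318, and 0.0655 without the array labelled Sohlh1 knockout 5). Lhx8 and Figla remained called without it, though Lhx8 was above the filter value in wild type only.

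Among genes of undifferentiated spermatogonia, some rose and others fell. There were 5 rises and 3 falls in 25 tested (32.0% called, against 2.90% of all tested genes), with a median of 0.32. Without the array labelled Sohlh1 knockout 5, 2 rose and 3 fell. Without both it and the array labelled Sohlh2 knockout 1, 5 rose and 3 fell. The number that rose was 3, 2, 2 and 2 without wild type 3, 4, 5 or 6 and 3, 3, 2 and 2 without the arrays labelled Sohlh1 knockout 2, 3, 4 or 5. Gfra1, the GDNF co-receptor, read 368, 296, 411 and 347 in wild type and 754, 687, 628 and 769 in the knockout. All knockout arrays were well above wild type (0.97, SE 0.15, adjusted p = 0.00287), and both other Gfra1 probe sets had the same sign without passing. Tspan8, a membrane protein of the stem cell pool, read 193, 212, 212 and 154 and 280.1, 381, 287 and 313, and Tcl1, which activates AKT, 337, 273, 346 and 299.6 and 457, 420.1, 550.2 and 579. These groups were apart by less, with 0.67 (adjusted p = 0.0266) and 0.65 (adjusted p = 0.044), and neither was called without the array labelled Sohlh1 knockout 5 (0.0678 and 0.126). The fifth was Glis3, at 0.55, which was not called without that array (adjusted p = 0.0614).

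The 3 that fell on that list were Neurog3, Sox3 and Pou3f1. Sox3, which is on the X chromosome and acts in progenitor spermatogonia, read 1319.8, 1500.3, 1508 and 1787 in wild type and 588, 629, 823 and 781 in the knockout (-1.11, SE 0.13, adjusted p = 0.000408). Pou3f1, a POU factor induced by GDNF, read 358, 448, 319 and 364 and 231, 155, 168 and 255 (-0.85, adjusted p = 0.0375). Sox3 was below wild type by a wide gap on every knockout array, whereas the gap for Pou3f1 was narrower. Both were called without the array labelled Sohlh1 knockout 5 (-1.16 and -0.97).

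Some genes of early germ cells and pluripotent cells rose. Of 18 tested, Dppa4, Pou5f1, Tcl1 and Zfp42 rose and Dppa3 fell (27.8% called, against 2.90% of all tested genes), with a median of 0.17. Without the array labelled Sohlh1 knockout 5 only Dppa4 and Pou5f1 were called. Without both it and the array labelled Sohlh2 knockout 1, 4 rose and 1 fell. Rises numbered 3, 2, 3 and 2 without wild type 3, 4, 5 or 6 and 2, 3, 2 and 2 without the arrays labelled Sohlh1 knockout 2, 3, 4 or 5. Dppa4, a chromatin protein of pluripotent cells, read 397, 419, 480.2 and 359 in wild type and 1024, 1073, 1020.2 and 1114 in the knockout. Its knockout arrays agreed closely, at 256% of the wild-type mean (1.33, SE 0.10, adjusted p = 9.09e-06). Pou5f1, which encodes Oct4, read 271, 269.8, 302 and 234 and 461, 664, 495 and 602, again with groups apart (1.00, adjusted p = 0.01). Zfp42, also called Rex1, read 76.1, 118, 164 and 56.2 and 164, 259, 257 and 190.2; the knockout array 2 and wild type 5 were nearly level, and the call was near the threshold (adjusted p = 0.0479).

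**Figure D4:**
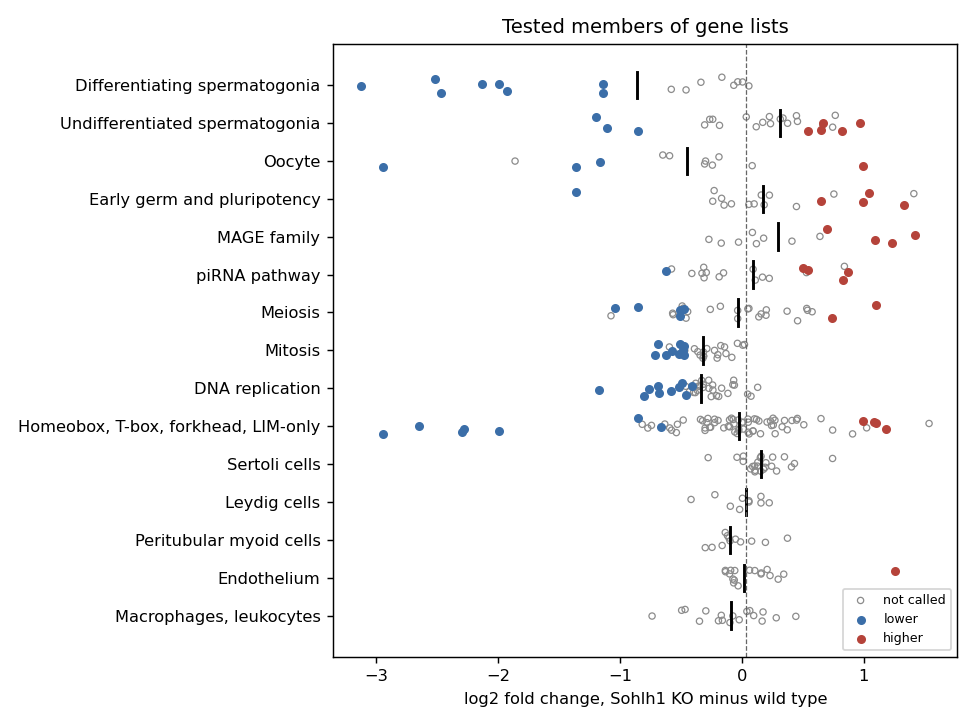
Log2 fold change (knockout minus wild type, horizontal) of each tested member of 15 gene lists, 1 point a gene, spread vertically only for legibility. Filled red points were called higher and filled blue points lower, open points were not called, black bars are list medians and the dashed line is the median of all tested genes, 0.03; differentiating spermatogonia have a median of -0.86 and the lists of Sertoli, Leydig, myoid and leukocyte genes hold no called gene.

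MAGE genes, a family first known from tumour antigens and expressed in germ cells, rose where they changed. Of 12 tested 4 rose and none fell, with and without the array labelled Sohlh1 knockout 5, and the median was 0.30. On all arrays 33.3% were thus called, against 2.90% of all tested genes. Magea6 read 115, 124, 179 and 127 in wild type and 392, 372, 380.4 and 391 in the knockout (1.43, adjusted p = 0.000486). Magea5 read 491, 519, 569 and 416 and 1306, 1053, 1106 and 1284 (1.23, adjusted p = 0.00073). All knockout arrays of both lay well above the highest wild-type array. Mageb3 and Mageb16 had 1.10 and 0.70. Some members of this family are near-identical in sequence, so probe sets may share their signal.

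Genes on the X chromosome made up 3.54% of the tested genes with a known chromosome, 16 of the 145 that rose (11%) and 9 of the 252 that fell (3.57%). Without the array labelled Sohlh1 knockout 5 they were 13 of 65 (20%) and 7 of 150 (4.67%). Among those that rose were Irs4, an adaptor of insulin signalling, from 72.4, 61.3, 66.7 and 48.6 to 159, 127, 134 and 185 (1.11), and Zcchc12, from 216, 173, 341 and 263 to 529, 443, 500.2 and 505 (0.99). Among those that fell were Rps6ka6, a ribosomal S6 kinase, from 1048, 1349.8, 1567 and 1268 to 689, 655, 534 and 497 (-1.12), and Dusp9, a phosphatase of MAP kinases, from 702, 704, 799 and 715 to 349, 349.5, 362 and 386 (-0.99). In all 4 the groups were apart, and the knockout arrays of Dusp9 were nearly level.

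Of 19 tested genes of the piRNA pathway, which silences transposons in germ cells, 4 rose and 1 fell, with and without the array labelled Sohlh1 knockout 5 (median 0.09). On all arrays 26.3% were called, against 2.90% of all tested genes. Morc1, a silencing factor, read 1412, 1345, 1474 and 1369 in wild type and 2645, 2426, 2377 and 2903 in the knockout (0.88, SE 0.08, adjusted p = 8.85e-05). The array labelled Sohlh1 knockout 5 was the farthest from wild type. Gtsf1, a partner of PIWI proteins, read 2796, 2948, 2950.5 and 2427 and 5777, 4337, 4119 and 5755 (0.83, adjusted p = 0.00394), and its knockout arrays fell into a higher pair (2 and 5) and a lower pair (3 and 4), both above wild type. Asz1 and Stk31 rose by 0.54 and 0.50. Pld6, a mitochondrial member of the pathway, fell by 0.62, from 869, 949, 1126 and 1059 to 530.2, 724, 689.8 and 648.

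Meiosis genes moved both ways, 2 up and 5 down of 29, or 24.1% called against 2.90% of all tested genes (median -0.03, or 0.01 after median centring). They were 1 up and 2 down without the array labelled Sohlh1 knockout 5. Leaving out the array labelled Sohlh2 knockout 1 as well gave 2 up and 5 down. Falls numbered 5, 1, 1 and 1 without wild type 3, 4, 5 or 6 and 4, 3, 1 and 2 without the arrays labelled Sohlh1 knockout 2, 3, 4 or 5. Mnd1, which helps strand exchange in recombination, read 203, 219, 189 and 233 in wild type and 460.0, 499.9, 425 and 489 in the knockout. Every knockout array was far above the highest wild-type array (1.10, SE 0.11, adjusted p = 0.00016). Hormad1, a protein of meiotic chromosome axes, read 239.6, 242, 333 and 317 and 417, 539, 459.9 and 499 (0.74, adjusted p = 0.0159, and 0.0515 without the array labelled Sohlh1 knockout 5). Tex11, an X-linked gene of meiotic crossovers, read 1409, 1534, 1777 and 1567 and 696, 832, 668 and 829, with the 2 groups about 2-fold apart (-1.04, SE 0.11, adjusted p = 0.000213). Syce1, of the synaptonemal complex, fell by 0.51, and the other falls were Mei4, Syce2 and Trip13, which were not called without the array labelled Sohlh1 knockout 5 (limma's adjusted p = 0.0628, 0.0835 and 0.0596).

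Some genes of cell division fell. Of 36 tested genes of DNA replication 10 fell, while 0 rose (27.8% called, against 2.90% of all tested genes). The median was -0.34, with 33 negative values. Without the array labelled Sohlh1 knockout 5, 6 fell, and 11 fell without both it and the array labelled Sohlh2 knockout 1. Leaving out wild type 3, 4, 5 or 6 left 9, 7, 5 and 5, and leaving out the arrays labelled Sohlh1 knockout 2, 3, 4 or 5 left 9, 8, 6 and 6. Ccne2, a cyclin of the G1 to S step, read 611, 847, 930.0 and 738 in wild type and 321, 315, 388 and 319.6 in the knockout (-1.17, adjusted p = 0.000495). Rrm2, of ribonucleotide reductase, read 2000.1, 2176, 2167 and 1830.2 and 1414, 1229.7, 1286 and 1162 (-0.68, adjusted p = 0.0028), and Cdc6, which loads the replicative helicase, 633, 743, 852 and 689 and 463, 432, 396 and 404 (-0.76, adjusted p = 0.00316). In each the 8 arrays separated by group. Fen1, a flap nuclease, and Orc1, of the origin recognition complex, fell by 0.51 and 0.80. Pcna, the replication clamp, read 11048, 12054, 13186 and 13193 and 11392, 9183, 8843 and 8344, where the array labelled Sohlh1 knockout 2 lay inside the wild-type range, and it was not called (-0.40, adjusted p = 0.0674).

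Of 29 mitosis genes 9 fell, while 0 rose (31.0% called, against 2.90% of all tested genes). Of all 29, 27 had negative values (median -0.32). Without the array labelled Sohlh1 knockout 5, 3 fell, and 10 fell without both it and the array labelled Sohlh2 knockout 1. The number was 7, 4, 2 and 3 without wild type 3, 4, 5 or 6, and 7, 6, 3 and 3 without the arrays labelled Sohlh1 knockout 2, 3, 4 or 5. Aurkb, a kinase of chromosome segregation, read 1131, 1033, 1001 and 1131 in wild type and 727, 607, 619 and 645 in the knockout (-0.72, adjusted p = 0.00199). Plk1, another mitotic kinase, read 874, 1072, 1149 and 1085 and 588, 588, 735 and 667 (-0.68, adjusted p = 0.0135). Cenpf and Kif23 fell by 0.50 and 0.57, and Foxm1, which drives genes of this phase, by 0.66. Kif23 and Foxm1 were not called without the array labelled Sohlh1 knockout 5 (limma's adjusted p = 0.0716 and 0.0743). Mki67, the proliferation marker Ki-67, read 2589.6, 2284, 2326 and 2303 and 2334, 2179, 1840.1 and 1929, with overlapping groups and no call (-0.20, adjusted p = 0.498). Ccnd1, cyclin D1, read 1529, 1607, 1591 and 1482 and 731, 736, 826 and 952, so the array labelled Sohlh1 knockout 5 was the nearest to wild type, and all 3 of its probe sets were called (-0.93, adjusted p = 0.000377). It was the only one of 18 tested genes on the list of G1 cyclins and cell cycle inhibitors to pass the test (5.56%, against 2.90% of all tested genes). Ccne2, which also fell, was counted with the DNA replication genes instead.

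Several genes with the smallest adjusted p belong to none of these lists and are named after their values were seen. Mbnl3, an RNA-binding protein of the muscleblind family on the X chromosome, read 1212, 1389, 1517 and 1572 in wild type and 459, 345, 378 and 419.9 in the knockout (-1.79, SE 0.12, adjusted p = 3.45e-06). Ccng1, cyclin G1, read 2609, 3026, 2811 and 3273 and 826, 985, 761 and 840.1 (-1.76, SE 0.12, adjusted p = 4.65e-06). Both groups were far apart, on these probe sets: neither of 2 other Mbnl3 probe sets and 1 of 2 other Ccng1 probe sets had the same sign, and none was called. Hcfc2, a relative of host cell factor, and Lpgat1, a lysophospholipid acyltransferase, had -1.25 and -1.50, with 1 of 2 and 1 of 3 other probe sets of the same sign. Over all 221 called genes with more than 1 tested probe set, 243 of 354 other probe sets (68.6%) had the sign of the called one, 34 were called the same way and 1 the opposite way; for genes not called the share of the same sign was 51.5%.

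Of the remaining large falls, Slc27a2, which takes up fatty acids and activates them, read 269, 288, 419 and 408 in wild type and 95.5, 76.4, 80.8 and 48.9 in the knockout. The array labelled Sohlh1 knockout 5 was the lowest (-2.01, adjusted p = 0.000254). Prok2, which encodes the secreted prokineticin 2, read 104, 82.9, 119.8 and 176 and 16.7, 31.9, 10.2 and 33.8, and Crybg2 299, 326, 367 and 470.0 and 99.4, 162, 11.8 and 174. Their knockout arrays scattered, most of all for Crybg2 through the array labelled Sohlh1 knockout 4, and both were near the threshold (0.0268 and 0.0489). Prok2 was above the filter value on no knockout array and entered the test through the wild-type arrays, so its values are descriptions. Bmp7, a secreted growth factor, read 366, 310.4, 341 and 469.7 and 102, 129.9, 157 and 176, with groups apart (-1.32, adjusted p = 0.000986). It was the 1 called of 34 tested genes of TGF-beta, BMP and activin signalling (2.94%), near the 2.90% of all tested genes.

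Several of the largest rises started from low signals, but those of Magea5, Dppa4 and Mapk10 did not (wild-type means of 499, 414 and 325). Aox4, Cldn34b2, Arhgap9 and Mypn were above the filter value on no wild-type array and entered the test through the knockout arrays, so their values are descriptions. Hdgfl1 read 15.6, 97.8, 46.9 and 23.6 in wild type and 133, 167, 166 and 235 in the knockout, with wild-type arrays spread over several fold (1.82, SE 0.33, adjusted p = 0.0114). Aox4, an aldehyde oxidase, read 41.6, 25.8, 24.5 and 19.8 and 108, 82.7, 124 and 171. Rrad, a small GTPase of the RGK family, read 85.4, 97.4, 127 and 134 and 335, 355, 306 and 326, with both groups tight and far apart. Their log2 fold changes were 1.67 (adjusted p = 0.00221) and 1.48 (adjusted p = 0.000201). The 3 genes, when the array labelled Sohlh1 knockout 5 was omitted, had 1.68, 1.51 and 1.48 and all were called. 

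Next in size were Cldn34b2, a claudin-like gene, at 1.45 and Arhgap9 at 1.43, both dim in wild type (18.9, 13.5, 10.5 and 5.21, and 41.2, 18.0, 15.7 and 15.1). Arhgap9 was not called without the array labelled Sohlh1 knockout 5 (limma's adjusted p = 0.0833), and Cldn34b2 was near the threshold (0.0487). Selp, the adhesion receptor P-selectin of activated endothelium and platelets, read 53.8, 27.9, 47.5 and 26.6 in wild type and 125, 77.0, 115 and 131 in the knockout (1.26, adjusted p = 0.0166, and 0.0597 without the array labelled Sohlh1 knockout 5). Sox30, a factor of later germ cells, read 43.5, 45.3, 56.6 and 81.0 and 183, 156, 96.5 and 184 (1.25, adjusted p = 0.0158, and 0.0584 without it). Here the array labelled Sohlh1 knockout 4 was near wild type while the array labelled Sohlh1 knockout 5 was the highest. Mypn, a sarcomere protein, Mapk10, a neuronal JNK kinase, and Ptpn20, a tyrosine phosphatase, had 1.22, 1.14 and 1.14, and the clone 1700019A02Rik had 1.14; of these only Ptpn20 was called without the array labelled Sohlh1 knockout 5.

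Each list of somatic cells held 0 or 1 called gene. Over all tested genes 2.90% were called, so counts of 0 or 1 say little for lists this short. None of 24 Sertoli cell genes was called by limma, with 5 at an unadjusted p under 0.05. Of them 22 had positive values (median 0.15), and their summed signal was 201641 to 240549 in wild type and 233226 to 261181 in the knockout. None of 10 Leydig cell genes was called (median 0.03, with 0 at an unadjusted p under 0.05), and their signals summed to 26773 to 33910.2 in wild type and 29589 to 33376 in the knockout. None of 12 peritubular myoid genes was called (median -0.10, with 2 at an unadjusted p under 0.05), and theirs summed to 54514 to 59483 in wild type and 55609 to 59603 in the knockout. All these sums overlapped between the groups. Of 18 endothelial genes Selp alone rose (median 0.02), while the summed signal was 5506 to 6243 in wild type and 5496 to 6310.1 in the knockout. None of 18 macrophage and leukocyte genes was called (1 at an unadjusted p under 0.05, median -0.08, or 0.01 without the array labelled Sohlh1 knockout 5). None of 6 erythroid genes (median -0.06, or 0.07) and none of 7 adipose genes (median 0.09, or 0.22) was called, and 0 of either had an unadjusted p under 0.05. Of 10 genes of epididymis and rete epithelium Epcam fell, and of 7 mesothelium and tunica genes Upk1b rose (0.89, from a mean of 99.1 to 190.2), which was not called without the array labelled Sohlh1 knockout 5 (limma's adjusted p = 0.0828). Kit was the called gene of the mast cell list.

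Mast cell genes other than Kit stood higher in the knockout without passing on all arrays. Without the arrays labelled Sohlh1 knockout 5 and Sohlh2 knockout 1, 1 of them was called higher. Their summed signal, over 9 genes with a probe set, was 981 to 1701 in wild type and 1804 to 2506 in the knockout, so that sum did not overlap, and Fcer1a and Ms4a2 were below the filter value on all 8 arrays. Cpa3, Cma1 and Mcpt4, proteases of mast cell granules, had log2 fold changes of 1.14, 0.93 and 1.20 with adjusted p of 0.0627, 0.0513 and 0.0819. The groups overlapped for Cpa3 (89.3 to 299 in wild type, 270 to 511 in the knockout) and Mcpt4 (38.0 to 214 and 194 to 276). For Cma1 they did not (76.1 to 191 and 216 to 315). Kit is also carried by mast cells; the part of these cells in any result was not tested. Germ cell genes of any stage, over 18 genes, summed to 57054 to 64598 in wild type and 52355 to 58061 in the knockout. The knockout median was 53830, and the highest sum, 58061, was that of the array labelled Sohlh1 knockout 5, the only knockout array inside the wild-type range. Of the 18 genes 12 had negative values (median -0.21, or -0.27 without that array), while Dppa4 and Stk31 rose and Tex11 fell. Of spermatid genes Prm1, Tnp2, Pgk2, Spata18 and Tssk2 were below the filter value on all 8 arrays, and 1 of 12 tested was called, Spaca1 at 0.99. Over 20 spermatid genes with a probe set the summed signal was 1832 to 2200 in wild type and 2266 to 2392 in the knockout, which did not overlap.

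Several lists of general cell functions held no called gene. There were 0 of 93 genes of oxidative phosphorylation, 0 of 39 proteasome genes, 0 of 16 glycolysis genes, 0 of 34 collagens, 0 of 21 Notch pathway genes and 0 of 18 immediate early genes, against 2.90% of all genes by limma, and of these 12, 7, 3, 0, 4 and 4 had an unadjusted p under 0.05. Of 45 ribosomal protein genes Rpl22l1 and Rpl39l rose, 2 paralogs of the common subunits, and Rpl39l was not called without the array labelled Sohlh1 knockout 5 (limma's adjusted p = 0.114), nor when the array labelled Sohlh1 knockout 2 was left out (0.0972). Of 19 cholesterol synthesis genes Mvd and Lss fell (median -0.15), and neither was called without the array labelled Sohlh1 knockout 5. Of 17 retinoic acid genes Crabp1 and Rbp4, the retinol carrier, fell; Rbp4 read 712, 798, 872 and 911 in wild type and 468, 457, 552 and 458 in the knockout (-0.75, adjusted p = 0.00466). Of 11 genes of DNA methylation Dnmt3b and Uhrf1, which guides maintenance methylation, fell, the second from 2699.6, 2114, 1945 and 2152 to 1584, 1486, 1488 and 1557 (-0.53, adjusted p = 0.0124). The epithelial adhesion protein Epcam read 1322, 1383, 1592 and 1502 and 991, 883, 679 and 809 (-0.79), and the metallothionein Mt2 7161, 9919.7, 9163 and 8392 and 5155, 5463, 5445 and 6155 (-0.63).

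The array labelled Sohlh1 knockout 5 was then set beside the others for the 215 genes called without it. It differed from the wild-type mean in the same direction for 214 of them, and for 210 it lay beyond all wild-type arrays. It was within the range of the other 3 knockout arrays for 95 genes, nearer to wild type for 80 and farther for 40. The median difference, signed by the direction of the call, was 0.79 on the log2 scale for it and 0.90, 0.81 and 0.81 for the arrays labelled Sohlh1 knockout 2, 3 and 4, which had chosen these genes. The exception in direction was Rusc1, which read 515, 568, 559 and 593 in wild type and 315, 319, 418 and 564 in the knockout.

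**Figure D5:**
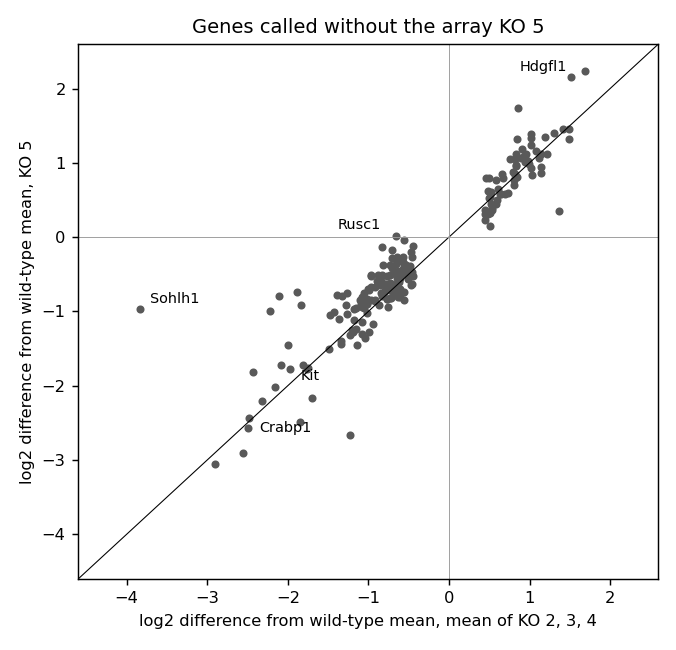
Log2 difference from the wild-type mean for the 215 genes called without the array labelled Sohlh1 knockout 5, 1 point a gene, as the mean of the arrays labelled Sohlh1 knockout 2, 3 and 4 (horizontal) and as the array labelled Sohlh1 knockout 5 (vertical), with the line of equal difference. The 3 arrays on the horizontal axis chose the genes; 214 points lie in the 2 quadrants of the same sign, and Sohlh1 lies farthest above the line among genes that fell.

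Of the called genes, 191 were called only with that array and 9 only without it. Of the latter, Nek3, a NIMA-related kinase, read 714, 834, 832 and 1057 in wild type and 491, 538, 522 and 754 in the knockout, and Akap8, which anchors protein kinase A in the nucleus, 2479, 2373, 2555 and 2541 and 1833, 1786, 1822 and 2281. Hfe, of iron balance, read 490.2, 438, 452 and 458 and 639, 697, 638 and 513. In these 3 the array labelled Sohlh1 knockout 5 was the nearest to wild type, as it was for Faap24 and Tuft1. These genes were picked as called only without that array, so its position follows largely from the choice. Adjusted p moved from 0.0548, 0.0591, 0.0671, 0.102 and 0.0536 with that array to 0.0189, 0.0243, 0.0366, 0.0399 and 0.0399 without it. Among genes called only with it were Cblb, a ubiquitin ligase, Cyp4f16, a cytochrome P450, and Bahd1, a heterochromatin protein, with adjusted p from 0.0152, 0.0158 and 0.0158 to 0.0519, 0.0531 and 0.0505. Without both that array and the array labelled Sohlh2 knockout 1, 357 of the 397 genes kept their call. Kif23, Foxm1, Tspan8, Tcl1, Sox30, Selp, Dppa3 and Hormad1 were then called (limma's adjusted p = 0.0249, 0.0424, 0.041, 0.0476, 0.0314, 0.0413, 0.0367 and 0.028). Arhgap9 and Mypn were among those that were not (0.0557 and 0.0801).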

How the data were processed

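Whole testes were profiled on Affymetrix mouse genome arrays, 4 per group. What the authors deposited are linear intensities (signals). MAS5 and GCOS are named in the submitters' processing notes, with settings and versions not given in the sources used here. On every array the trimmed mean (2% off each end) of the deposited values is the same. Signals come mostly from the 3′ ends of transcripts, since labelling was primed with oligo(dT) per the labels' protocols. Precision is limited by how few arrays there are.

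Of 45101 probe sets 64 controls were left out. Among the rest 932 had several symbols and 9160 none, and these are unnamed here. Intensities became log2(signal + 14.2), the offset being the 20th percentile, which draws fold changes of dim genes towards 0. A probe set was tested if 4 or more of 12 arrays exceeded 48.6, the 40th percentile, which 28694 did. limma 3.58.1 in R 4.3.3 was fitted to all 12 arrays, with genotype as the term and a mean-variance trend (eBayes), and p-values, two-sided, were given Benjamini-Hochberg adjustment across these 28694. A gene is its tested 1-symbol probe set of highest mean. Symbols were compared by Entrez identifier with RefSeq (GRCm38.p6), which matched 34741 probe sets and changed 0 symbols. Of the tested genes 186 were above the filter value on no array of at least 1 of the 2 groups compared, and could have passed partly through the Sohlh2 knockout arrays. Figures were drawn with matplotlib 3.10.9.

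The comparison, the rule for named genes and the gene lists were chosen with earlier results of these data known. The rule names the targeted genes, the 15 largest rises and falls among called genes whose groups do not overlap, up to 5 members of each list by p, and up to 5 genes called only with or only without the array labelled Sohlh1 knockout 5. List members named beyond these and genes outside the lists were chosen after their values were seen. On simulated data with 28694 probe sets, the fit of this comparison recovered 26% of 1.5-fold changes, 70% of those of 2-fold, 90% of those of 3-fold and 94% of those of 4-fold. Of the unchanged probe sets 8 were called. Changes were placed only on probe sets well above the filter value, so dim genes are not covered. The noise was normal and independent, with no deviating array.

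Replicate numbers 3, 4 and 5 are shared by the groups in the titles. Same-numbered arrays did not deviate together (correlations -0.117, -0.0130 and 0.0271), so the numbers were not taken as pairs. Alternatives covered offsets, normalization, filters, probe sets, variance models, the replicate block, a covariate for the 3′ to 5′ control ratio, the threshold and arrays left out. Arrays were never moved between groups.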

Additional observations from a re-analysis of the deposited data

Results flagged for a closer look

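Within groups of 4 arrays, the highest or lowest value was compared with its nearest neighbour by Dixon's ratio (gap over range) at its 95% critical value. Among 192 groups of signals and control ratios examined, 17 had an array past that value; chance gives about 1 in 20. On the array labelled Sohlh1 knockout 5, Sohlh1 read 595 against 50.1 to 103.9 on the others, Sohlh2 94.4 against 1556 to 1783, and Akap8 2281 against 1786 to 1833. Both targeted-gene values go against that label. On the array labelled Sohlh1 knockout 2, Dlx1 read 18.4 against 2.02 to 2.26. The same array had an actin 3′ to 5′ ratio of 2.10 against 1.41 to 1.45, a Gapdh 3′ to 5′ ratio of 1.17 against 0.778 to 0.811, and an 18S control signal of 17901 against 191 to 239.

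The array labelled Sohlh1 knockout 4 was lowest for Stra8, at 2792 against 3458 to 3580. It was highest for Ascl2 (235 against 138 to 153), Ccne2 (388 against 315 to 321) and Rbp4 (552 against 457 to 468). Among wild-type arrays, wild type 3 was lowest for Lhx8 (217 against 272 to 279.5) and highest for Mki67 (2590 against 2284 to 2326.2), Arhgap9 (41.2 against 15.1 to 18.0) and the actin ratio (1.43 against 1.32 to 1.33). Wild type 5 was highest for Runx3 (277 against 209 to 218) and Dusp9 (799 against 702 to 715).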

How the results depend on the processing

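Of 82 called genes given with values in the report, 77 could be computed under all 29 alternatives, and 30 of these stayed past the threshold under each. Over 2373 pairs of a gene among the 82 and an alternative 2074 kept the call, 299 lost it and 0 reversed. How many probe sets passed moved more. Changed, higher and lower probe sets and changed genes numbered 311, 97, 214 and 224 without a variance trend, 1127, 409, 718 and 760 with array weights, 1164, 394, 770 and 759 with a covariate for the 3′ to 5′ ratio, and 167, 41, 126 and 128 at an adjusted p under 0.01. They were 1139, 377, 762 and 703 without the array labelled Sohlh2 knockout 1, and 120, 22, 98 and 94 without the arrays labelled Sohlh1 knockout 2 and 5. Without a filter 118 probe sets were higher, and without the arrays labelled Sohlh1 knockout 2 and 5 and Sohlh2 knockout 1 115 were. A fit of 1 probe set per gene called 609 genes and a fit of the mean over probe sets 375; neither gives a count of probe sets. Leaving out 1 array of the groups compared gave 209 to 528 probe sets changed, 66 to 183 higher and 143 to 345 lower, and 162 to 353 genes. The causes were not tested.

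With the replicate number as a block over the 8 arrays, 132 probe sets were changed, 32 higher and 100 lower, and 107 genes; the numbers pair arrays only by name. The log2 fold change of Sohlh2 turned to 0.65 without the array labelled Sohlh1 knockout 5, also without Sohlh2 knockout 1, and to 0.69 without Sohlh1 knockout 2 and 5, with or without Sohlh2 knockout 1; with 1 array left out it ran from -0.70 to 0.65. Rusc1 had 0.016 where probe sets that can match several transcripts were left out and another stood for it. Medians of 3 lists, retinoic acid, leukocyte and erythroid genes, changed sign without the array labelled Sohlh1 knockout 5. Median centring and quantile normalization turned the median of homeobox, T-box, forkhead and LIM-only genes to 0.02 each, and centring that of meiosis genes to 0.01. The share of X-linked genes among those that rose ran from 7.19% to 22.9% over all alternatives. Knockout signals under 48.6, as for Lhx8, Dlx1 and Foxn4, limit the size of their fall to what the offset allows.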

Other observations

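Genes for making ribosomes and RNA polymerases were looked at after their members had been seen among the called genes, so their counts are descriptions. Of 66 tested genes of ribosome assembly 9 fell and 1 rose (median -0.13, with 50 negative values), and 5 fell (Sdad1, Ddx21, Rrp1b, Utp18 and Wdr46) and 1 rose without the array labelled Sohlh1 knockout 5, or 4 fell and 0 rose without the array labelled Sohlh1 knockout 2. The falls were Sdad1 (1662 to 858 in mean signal, log2 fold change -0.94), Ddx21 (1488 to 924, -0.68), Noc3l (-0.63), Rrp1b (-0.55), Nat10 (-0.55), Utp18 (-0.52), Wdr46 (-0.52), Noc4l (-0.51) and Pes1 (-0.49), and the rise was Utp23 (0.67). The other tested Ddx21 probe set had 0.02 and the other of Noc3l 0.35, neither called. Of 25 subunits of RNA polymerases 4 fell and none rose (median -0.07), which were Polr3e (-0.52), Polr2e (-0.47), Polr2f (-0.47) and Polr2j (-0.35), and Polr2e and Polr2f fell without the array labelled Sohlh1 knockout 5, or 3 of the 4 without the array labelled Sohlh1 knockout 2.

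Other lists were near the share called over all genes, 2.90%, or rested on 1 or 2 genes. Of 255 solute carriers 4 fell and 1 rose (1.96%), or 3 and 1 where the array labelled Sohlh1 knockout 5 was left out and Slc5a6 lost its call. Of 29 histone modifiers the methyltransferase Ehmt2 fell by 0.50 and the demethylase Kdm1b rose by 0.42, and of 22 apoptosis genes Bid fell by 0.56. Of 34 Wnt pathway genes (2.94% called) the co-receptor Lrp5 fell, from a mean of 80.3 to 31.4. Without the array labelled Sohlh1 knockout 5 limma's adjusted p was 0.0615 for Ehmt2, 0.109 for Kdm1b, 0.115 for Bid and 0.0850 for Lrp5, so none of these 4 was called.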
